A study of Mus musculus with 19 samples.

Results

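The expression of 16134 genes was compared in brown adipose tissue (BAT) of old and young mice kept in the cold. The members were the 4 libraries of old mice and the 5 libraries of young mice that GEO labels as kept at 4°C, 9 of the 19 libraries in all, chosen by their labels and by no measured value. All mice were wild-type C57BL6J males without any transgene, 24 months old in the old group and 3 months old in the young group, and each was housed alone without food or bedding during the exposure. The exposure lasted 5 h by the treatment protocol in the labels and 24 h by their design text, and tissue was taken from between the shoulder blades. The other 10 libraries, 5 old and 5 young, came from mice of the same ages, strain and handling kept at 24°C. They are used here where room temperature is set beside the cold and in fits over all 19 libraries. Whether each library came from a separate mouse is implied by the animal numbers, and p-values cover only the spread between these libraries.

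BAT burns lipid and glucose to make heat. Noradrenaline from sympathetic nerves acts through the β3-adrenergic receptor (Adrb3) and cAMP, lipolysis releases fatty acids, and uncoupling protein 1 (Ucp1) lets protons back across the inner mitochondrial membrane so that respiration yields heat in place of ATP. The coactivator Ppargc1a and the deiodinase Dio2, which makes active thyroid hormone inside the cell, are textbook targets of this signal. The tissue also holds endothelial cells, fibroblasts, macrophages and other immune cells, all of which give RNA to a bulk library, so that fewer cells of a type and less RNA per cell cannot be told apart in these data.

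The tissue label was checked against brown adipocyte markers. Ucp1 stood between 11.30 and 12.41 in every cold library on the deposited scale of log2(TPM + 1), where TPM is the abundance of transcripts scaled by gene length and library, and all 25 genes of brown adipocyte identity and thermogenesis in the table were detected in at least 1 cold library, while Elovl3 was not analysed here. The TPM values did not sum to the same total in every library. Among the cold libraries the total was lowest in old replicate 4. The main fits used the values as deposited, without further scaling. The old libraries were not alike. Their mean log2(TPM + 1) over genes was 1.35, 1.27, 1.11 and 0.82 in old replicates 1 to 4, beside 1.09 to 1.20 in the young libraries. The predicted gene Gm20594 was at 11.26 and 11.22 in old replicates 1 and 2 but at 15.20 and 15.13 in old replicates 3 and 4, and at 15.16 to 15.93 in the young libraries. Among the room temperature libraries, Gm20594 was at 11.26 in old replicate 1 and 11.29 in young replicate 2, and at 15.04 to 16.14 in the others. Depth relative to the deepest library was 13.5%, 13.5%, 33.9% and 14.1% in the old libraries, 23.5% to 100% in the young, a difference of -26.33 percentage points (exact two-sided permutation p = 0.0635). The Euclidean distance between libraries averaged 80.4 ± 29.3 (SD, 6 pairs) within the old, 35.6 ± 6.43 (10 pairs) within the young and 62.5 ± 15.7 (20 pairs) between the ages. The old libraries were thus farther from each other than from the young ones on average. The first principal component held 58.1% of the variance and ran from old replicate 1 at 48.3 to old replicate 4 at -72.6, with the young libraries between -8.5 and 9.3. Results are therefore also given without old replicate 4, and with only the libraries whose Gm20594 value was 13 or more, which leaves old replicates 3 and 4 and all 5 young libraries.

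**Figure D1:**
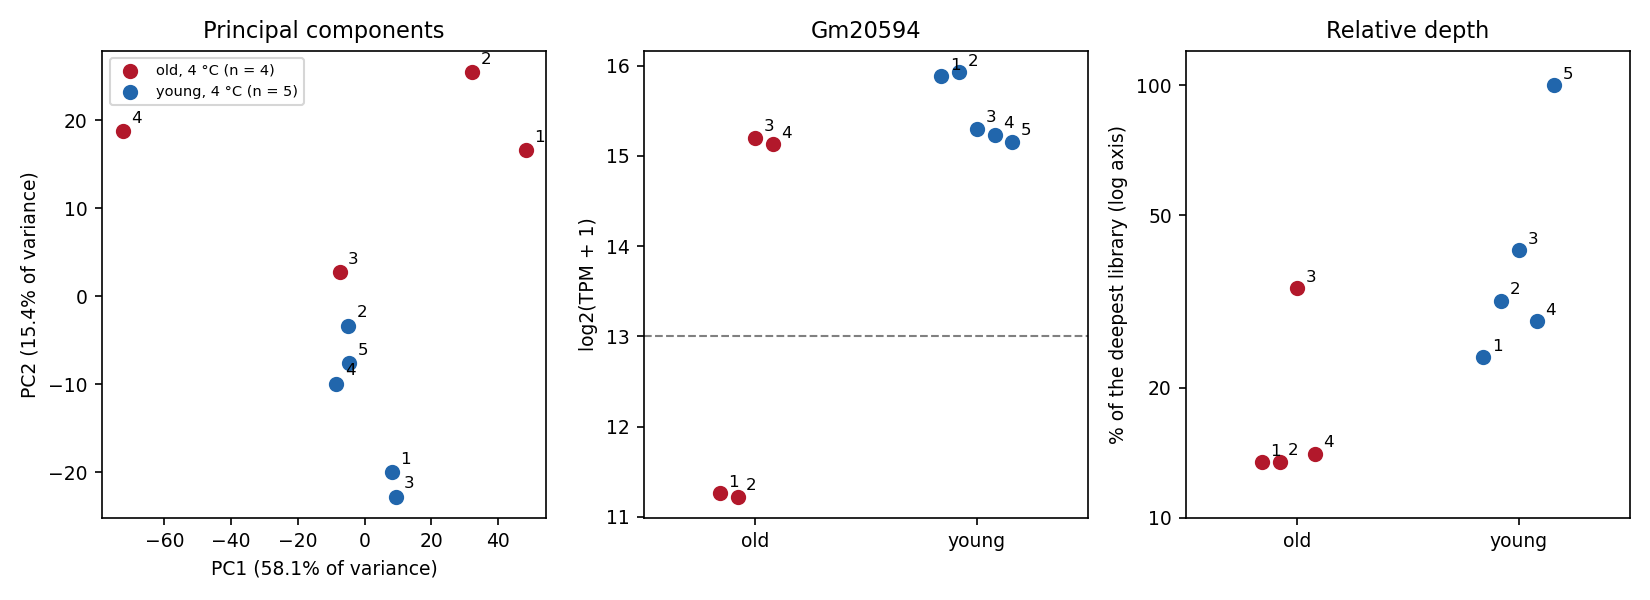
Left, the cold libraries on the first and second principal components of the log2(TPM + 1) values. Middle, the Gm20594 level, with a dashed line at 13. Right, depth as a percentage of the deepest library on a log axis. Each point is a library and its number is the replicate. Old replicates 1 and 2 lie apart from old replicate 4 on the first component and below the line in the middle panel, and old replicates 1, 2 and 4 are the shallowest.

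Of the 16134 genes tested, 8 were higher and 18 were lower in old than in young BAT in the cold by limma at a Benjamini-Hochberg adjusted p under 0.25, that is 0.0496% and 0.112% of the genes. At an adjusted p under 0.05, 1 gene was higher and 2 were lower. With all libraries of a group above or below all of the other, 156 genes (0.967%) were higher and 194 (1.2%) lower, and all 26 called genes were among them. At an unadjusted p under 0.05, 423 genes (2.62%) were higher and 426 (2.64%) lower, together about the share that this threshold passes when no gene differs. Median centring of the libraries gave 281 higher and 191 lower, and quantile normalization 704 and 492, so that the higher calls made up most of the calls under these scalings but not in the values as deposited. All 26 called genes are protein-coding, 1 lies on the X chromosome, and none is a predicted gene or a pseudogene. Their median level was 2.43 against 0.92 for all genes tested. Their SD among the old libraries had a median of 0.16, against 0.35 over all genes tested, while among the young it was 0.14 against 0.12. The called genes were thus mostly those on which the 4 old libraries stood close together.

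**Figure D2:**
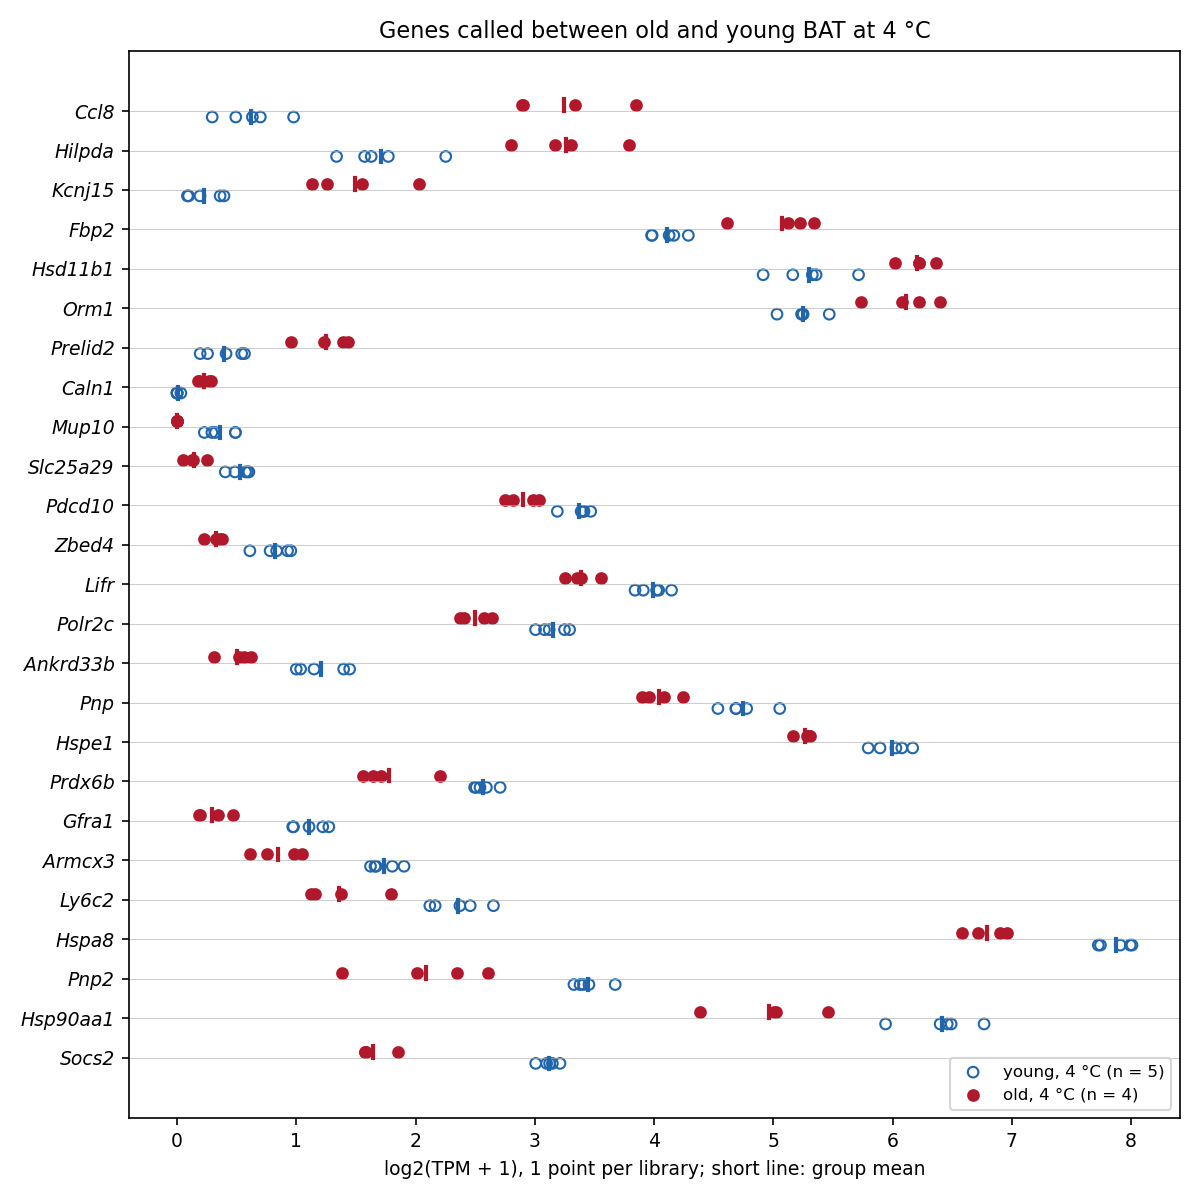
Values of 25 of the 26 called genes in each cold library, as log2(TPM + 1) on the horizontal axis. Filled points are the 4 old libraries, open points the 5 young libraries, and short lines the group means. In every gene drawn the old and the young points do not overlap, from Ccl8 at the top (old minus young 2.63) to Socs2 at the bottom (-1.47).

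The direction of all 26 held, and all 26 were called again, both without old replicate 4 and with only old replicates 3 and 4. The numbers of calls around them did not hold. Without old replicate 4, 2461 genes (15.3%) were called higher and 320 (1.99%) lower. With only the libraries at a Gm20594 value of 13 or more, 247 (1.54%) were called higher and 4398 (27.5%) lower, and the median difference over all genes was -0.16. Of the genes called in these 2 settings, 173 were higher in both, 200 were lower in both and 8 were called in opposite directions. With both restrictions only old replicate 3 is left, so that the spread of the old libraries cannot be estimated and no calls are given. The direction was the same for all 26. Fewer calls held in other fits. Of the 26, 9 were called again with Gm20594 at 13 or more against less as a covariate over all 19 libraries. These were Ccl8, Hilpda, Fbp2, Socs2, Gfra1, Armcx3, Hspe1, Ankrd33b and Slc25a29. With all 19 libraries in one fit 11 were called again, and 12 with a trended and robust prior. With a mean of at least 1 TPM it was 12 of the 18 tested. It was 13 without a filter on low values and 16 with a pseudocount of 0.1. Fewer also held when other libraries were left out, though no gene changed direction: 10 and 12 of the 26 without old replicates 1 and 2, all 26 without old replicate 3, and 10, 9, 6, 3 and 7 without young replicates 1 to 5. Leaving aside the fit with old replicate 3 alone, Ccl8 and Socs2 were called in every alternative but 1. That was the fit with the replicate number as a block, which called 0 genes by limma. All of these fits share libraries, so that none is independent support.

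Socs2 gave the lowest adjusted p of the comparison. It encodes a suppressor of cytokine signalling that dampens growth hormone signals through the JAK and STAT5 proteins. Its value was 1.58, 1.57, 1.85 and 1.58 in old replicates 1 to 4 and 3.21, 3.01, 3.15, 3.10 and 3.12 in young replicates 1 to 5. Every old library was more than 1 log2 unit below every young library. Socs2 fell by 1.47 ± 0.07 (standard error, limma adjusted p = 0.00047). The leukaemia inhibitory factor receptor Lifr, which signals through STAT3, was at 3.35, 3.56, 3.39 and 3.25 in old BAT and between 3.84 and 4.15 in young BAT, without overlap, and fell by 0.60 ± 0.08 (limma adjusted p = 0.145). Gfra1, the co-receptor for glial cell line-derived neurotrophic factor, was at 0.18, 0.34, 0.19 and 0.47 in old and at 0.97 to 1.27 in young libraries. The groups did not overlap and the difference was -0.81 ± 0.09 (limma adjusted p = 0.0572). These 3 genes of receptor signalling were among the 18 lower calls. Other genes of the same pathways did not pass the test. Socs3 differed by 0.28, Socs1 by 0.08, Stat5a by -0.24, Stat5b by -0.16, the growth hormone receptor Ghr by 0.12, the shared receptor chain Il6st by -0.22, and Ret, which signals with Gfra1, by 0.02. These genes were chosen after their values were seen.

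Genes of the heat shock response formed the only list with several calls. Heat shock proteins fold nascent and damaged proteins, and many are induced by heat shock factor 1, which binds repeats of the unit GAA and its complement TTC in alternating orientation. Of 22 listed genes tested for heat shock and the unfolded protein response, 3 were called lower and 0 higher, 4 lay without overlap below the young libraries, and 5 were lower at an unadjusted p under 0.05. Over all genes, 0.112% were called lower, 1.2% were lower without overlap and 2.64% were lower at that unadjusted p. The list's median was -0.06, beside -0.004 over all genes tested, so the calls were those of a few members. Hspa8, the constitutive cytosolic HSP70 chaperone, was at 6.71, 6.96, 6.90 and 6.58 in old BAT and at 7.73, 7.91, 8.01, 7.99 and 7.74 in young BAT. The highest old library was below the lowest young library, and Hspa8 fell by 1.09 ± 0.10 (limma adjusted p = 0.0225). Hspe1, the mitochondrial HSP10 that caps the HSP60 chamber, was at 5.30, 5.31, 5.28 and 5.16 in old and at 6.17, 5.80, 6.08, 6.03 and 5.89 in young libraries. The old values lay within a narrow band and below all young ones, a difference of -0.73 ± 0.08 (limma adjusted p = 0.0572). Hsp90aa1, the inducible cytosolic HSP90, was at 5.02, 5.00, 5.46 and 4.38 in old and at 6.77, 6.40, 6.46, 6.49 and 5.94 in young BAT, again without overlap, and fell by 1.44 ± 0.23 (limma adjusted p = 0.216).

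The other chaperones did not pass the test. The small heat shock protein Hspb1 was at 4.99, 5.01, 4.84 and 3.58 in old and between 5.16 and 5.62 in young libraries, without overlap, with a difference of -0.82 ± 0.29 (limma adjusted p = 0.78). Hspd1, the HSP60 that works with Hspe1, differed by -0.65 ± 0.27, with 1 old library above the lowest young library (limma adjusted p = 0.91). Hsp90ab1, the constitutive HSP90, differed by -0.38 ± 0.45, Hsph1 by -0.20 ± 0.55, Hspa1a by -0.15 ± 0.50, Dnajb1 by 0.22 ± 0.39 and Bag3 by 0.08 ± 0.33. For Hsph1 the old libraries spread from 1.85 in replicate 4 to 4.78 in replicate 2, around the young range of 3.51 to 4.19. Genes of the endoplasmic reticulum response lay near 0, with Hspa5 at -0.28 ± 0.27, Atf4 at 0.03 ± 0.34, Ddit3 at 0.24 ± 0.42 and Xbp1 at -0.02 ± 0.28. The median of the list moved with the libraries included, to 0.31 without old replicate 4 and to -0.57 with only old replicates 3 and 4, whereas Hspa8, Hspe1 and Hsp90aa1 differed by -1.02, -0.70 and -1.25 in the first setting and by -1.14, -0.77 and -1.49 in the second. With that Gm20594 covariate the differences were smaller, -0.74 for Hspa8 (limma adjusted p = 0.400), -1.06 for Hsp90aa1 (0.328) and -0.59 for Hspe1 (0.188), so that only Hspe1 of the 3 was called. Hspa8 was also not called with all 19 libraries in one fit (0.322). Hsp90aa1 was not called without old replicate 1 or 2 or when any 1 young library was left out (0.299 to 0.591). Hspe1 was not called without young replicate 4 (0.268), with at least 1 TPM (0.338) or with the trended and robust prior (0.418). None of the 3 was called with the replicate number as a block, a fit that called 0 genes by limma. Not every setting without a call is named here.

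**Figure D3:**
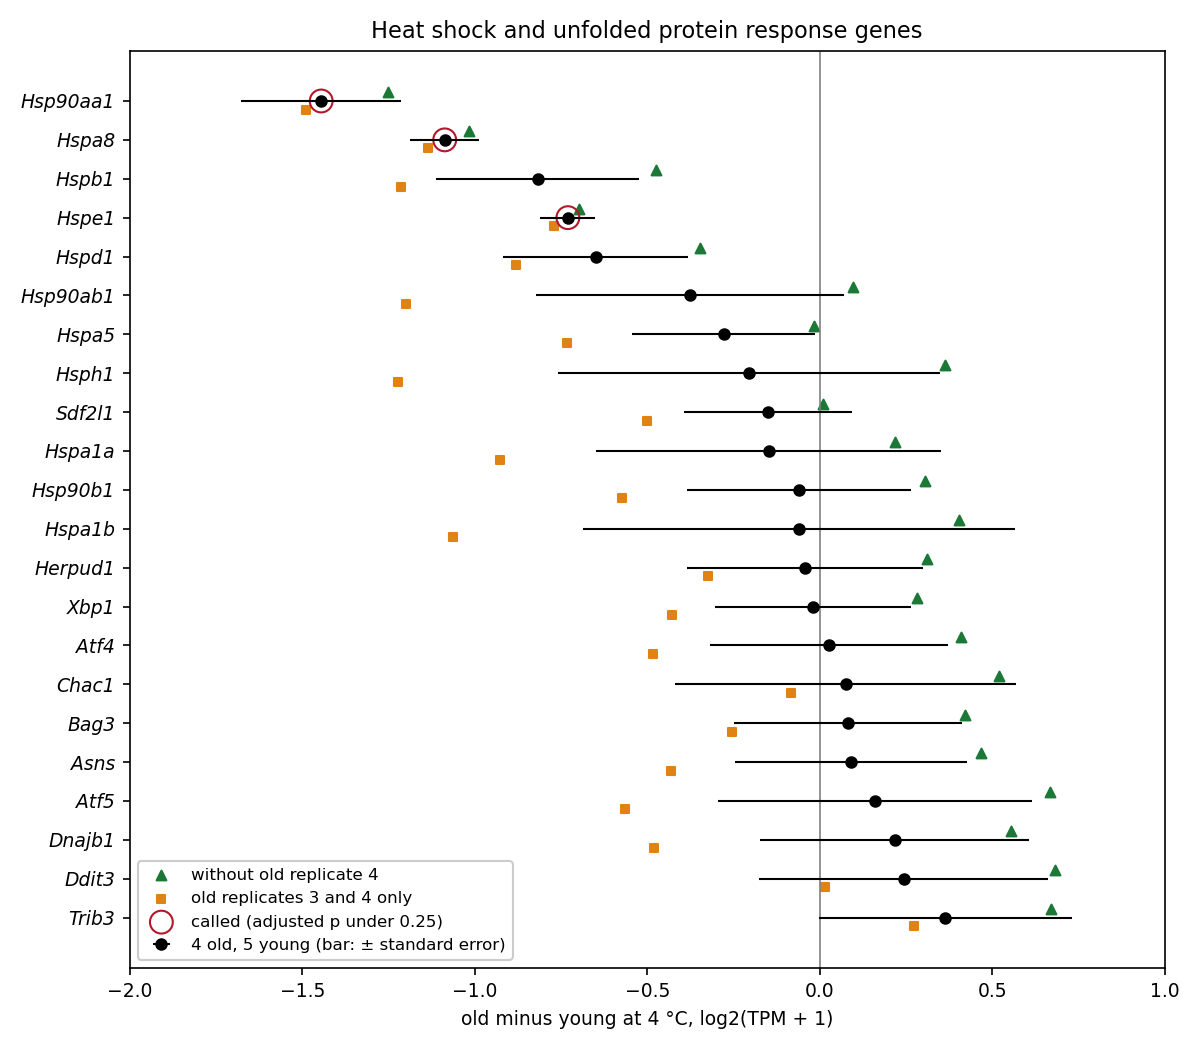
Old minus young difference in the cold for the 22 genes of heat shock and the unfolded protein response. Black points and bars are the limma difference of 4 old and 5 young libraries ± standard error, triangles leave out old replicate 4, and squares use only old replicates 3 and 4 of the old. Circles mark Hspa8, Hspe1 and Hsp90aa1, whose 3 estimates lie close together below 0, while most other genes lie above 0 in one setting and below it in the other.

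Promoter sequence was examined because 3 chaperone genes moved together. RefSeq windows on GRCm38.p6, of 300 bases from 250 before to 50 after a start, held 17 of the 26 called genes and 19 of the 22 genes of the heat shock list; Hspa8, Hsp90aa1 and Socs2 had no window and only their names are given. The motif searched was GAANNTTCNNGAA or, for the other strand, TTCNNGAANNTTC, where matches may overlap. It was found in 0.603% of all 32851 windows, in 1 of the 17 called genes (Hspe1) and in 3 of the 19 genes of the list (Hspe1, Hspd1 and Hsph1). Some genes have more than 1 window, so the share of windows and the counts of genes are not in the same unit. Hspe1 and Hspd1 are neighbours that are read from opposite strands, so that their windows share the same stretch. The window of Hspe1 is shown because it is the only called gene with a match, on the plus strand at chr1:55087898-55088197, with the 2 overlapping matches in capitals.
Hspe1: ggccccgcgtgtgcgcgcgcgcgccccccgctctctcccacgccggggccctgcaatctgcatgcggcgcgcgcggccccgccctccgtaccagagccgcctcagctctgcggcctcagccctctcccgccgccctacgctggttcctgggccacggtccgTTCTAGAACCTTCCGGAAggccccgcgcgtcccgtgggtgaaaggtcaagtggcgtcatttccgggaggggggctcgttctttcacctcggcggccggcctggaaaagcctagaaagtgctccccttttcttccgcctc
Of the 3 genes with a match, Hspe1 was called and Hspd1 and Hsph1 were not. A match of letters is a description of the window and does not show that a factor binds there.

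Purine metabolism was represented by a pair of neighbouring genes. Pnp, purine nucleoside phosphorylase, was at 4.08, 4.24, 3.96 and 3.90 in old and between 4.54 and 5.05 in young libraries, and its copy Pnp2 was at 1.38, 2.01, 2.61 and 2.35 against 3.33 to 3.67. Neither overlapped between the ages. Pnp fell by 0.70 ± 0.11 and Pnp2 by 1.36 ± 0.23 (limma adjusted p = 0.216 for both). With the Gm20594 covariate the differences were -0.48 for Pnp and -0.61 for Pnp2, and neither was called (limma adjusted p = 0.532 and 0.448). The annotation places Pnp at chr14:50944517-50963136 and Pnp2 at chr14:50955992-50964749 on GRCm38, overlapping each other, and how the authors counted reads shared by such genes was not stated, so the values of the pair are uncertain as separate genes. The same holds for Prdx6b, a copy of the antioxidant enzyme Prdx6. Prdx6b was at 1.56, 1.64, 2.20 and 1.71 in old and between 2.50 and 2.71 in young BAT and differed by -0.79 ± 0.13 (limma adjusted p = 0.216), while Prdx6 itself did not pass the test at -0.33 ± 0.27. With the Gm20594 covariate Prdx6b was at -0.47 and was not called (limma adjusted p = 0.370).

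The other lower calls encode proteins of different kinds. Armcx3, a protein of the mitochondrial outer membrane, was at 0.98, 0.76, 1.05 and 0.61 in old and at 1.62 to 1.90 in young libraries and fell by 0.88 ± 0.10 (limma adjusted p = 0.0701). Polr2c, a subunit of RNA polymerase II, was at 2.38, 2.57, 2.64 and 2.41 against 3.01 to 3.29 and fell by 0.65 ± 0.08 (limma adjusted p = 0.0972). In both the old libraries lay below the young without overlap. Ly6c2, a surface protein of monocytes and of endothelium, was at 1.79, 1.16, 1.37 and 1.12 against 2.12 to 2.65 and fell by 0.99 ± 0.17 (limma adjusted p = 0.216), whereas its near-identical neighbour Ly6c1 did not pass the test at -0.33 ± 0.26. Ankrd33b (-0.70 ± 0.11), the zinc finger gene Zbed4 (-0.50 ± 0.08), Pdcd10, which stabilizes vessel walls (-0.47 ± 0.08), and Slc25a29, a mitochondrial carrier of basic amino acids (-0.39 ± 0.06), were also called lower, with limma adjusted p between 0.199 and 0.216. Mup10, a member of the multigene family of major urinary proteins, was listed at 0 in all 4 old libraries and at 0.23 to 0.49 in the young ones (limma adjusted p = 0.227), at a level where a single read counts for much in the shallower old libraries.

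Among the 8 higher calls, Ccl8 differed most. It encodes a chemokine that draws monocytes and T cells and is made largely by macrophages. Its value was 3.34, 3.85, 2.90 and 2.89 in old replicates 1 to 4 and 0.63, 0.49, 0.70, 0.29 and 0.98 in young replicates 1 to 5. Every old library was well above every young library. Ccl8 rose by 2.63 ± 0.22 (limma adjusted p = 0.0189). It was the only call, higher or lower, among the 24 listed genes of senescence and secreted inflammatory factors that were tested. Of these, 20 had a higher mean in old BAT and the median was 0.14. At an unadjusted p under 0.05, 4 of them were higher, beside 2.62% of all genes. Chemokine genes related to Ccl8, chosen after their values were seen, did not pass the test, with Ccl2 at 0.11, Ccl7 at -0.02, Ccl11 at 0.08 and Ccl12 at 0.06. Orm1, an acute phase glycoprotein of plasma, was at 6.40, 5.74, 6.22 and 6.08 in old and between 5.03 and 5.47 in young BAT and rose by 0.86 ± 0.14 (limma adjusted p = 0.216). Its neighbours in the same gene cluster went the other way without passing the test, Orm2 at -0.18 and Orm3 at -0.34, and reads may be shared between such copies.

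Immune marker genes stood higher beside Ccl8 but none was called. Of 21 macrophage markers, 20 had a higher mean in old BAT, 3 did not overlap and 8 were higher at an unadjusted p under 0.05, with a median of 0.36, beside 0.967% of all genes that were higher without overlap and 2.62% higher at that unadjusted p. Their summed level was 211.4, 156.2, 80.4 and 118.9 TPM in old replicates 1 to 4 and 43.8 to 83.9 TPM in young libraries, so that old replicate 3 lay within the young range. C1qa, C1qb and C1qc, subunits of complement C1q, were higher without overlap by 1.10 ± 0.29, 0.93 ± 0.21 and 1.03 ± 0.21 (limma adjusted p = 0.46, 0.37 and 0.32). Of 9 genes of MHC class II presentation, 8 had a higher mean, 3 did not overlap and 6 were higher at an unadjusted p under 0.05, against the same 0.967% and 2.62% of all genes. H2-Aa, an MHC class II chain, was at 5.26, 5.54, 4.27 and 5.08 in old and between 3.46 and 4.18 in young libraries (1.24 ± 0.26, limma adjusted p = 0.34). The list summed to 71.9 to 174.2 TPM in old and 33.1 to 57.2 TPM in young BAT, without overlap. T cell and NK cell markers summed to 2.01 to 7.47 TPM in old and 0.775 to 1.20 TPM in young libraries, also without overlap, though the defining gene Cd3e was at 0 in old replicates 2 and 3 and in 3 of the young libraries. Of 20 such genes tested, 19 had a higher mean. The part of immune cells in the difference of Ccl8 was not tested.

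Without old replicate 4 the immune lists held many calls, 11 of 21 macrophage markers, 10 of 20 T cell and NK cell markers, 7 of 9 MHC class II genes and 17 of 32 interferon response genes, all higher, beside the 15.3% of all genes called higher in that setting. With only old replicates 3 and 4 the calls were 4, 2, 3 and 1, beside 1.54%.

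Hilpda and Fbp2, both called higher, belong to lipid and glucose metabolism. Hilpda, a small protein of lipid droplets that inhibits the lipase Pnpla2, was at 3.17, 3.30, 3.79 and 2.80 in old and at 1.34, 2.25, 1.63, 1.77 and 1.57 in young BAT. The groups did not overlap, and Hilpda rose by 1.55 ± 0.23 (limma adjusted p = 0.199). It was the only call among 14 genes of lipolysis and the lipid droplet. Plin2, which coats droplets, stood at 9.46, 8.87, 8.86 and 7.85 in old and at 7.38 to 8.07 in young libraries and did not pass the test (0.94 ± 0.30, limma adjusted p = 0.65), and the lipase Pnpla2 itself differed by 0.02 ± 0.39. Fbp2, the muscle form of fructose-1,6-bisphosphatase, was at 5.34, 5.12, 4.62 and 5.23 in old and between 3.98 and 4.29 in young BAT, without overlap, and rose by 0.97 ± 0.15 (limma adjusted p = 0.199). Skeletal muscle markers went the other way, with a lower mean in old BAT for all 18, none called and none at an unadjusted p under 0.05. Their sum was 382.9, 12.6, 238.8 and 15.8 TPM in old replicates 1 to 4 and ran from 37.8 to 1618 TPM in young libraries, so the amount of muscle RNA varied widely within both ages.

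Hsd11b1 makes active glucocorticoid from its inactive form inside adipocytes. It was at 6.22, 6.36, 6.22 and 6.02 in old and between 4.91 and 5.71 in young libraries, without overlap, and rose by 0.91 ± 0.15 (limma adjusted p = 0.216). Kcnj15, an inwardly rectifying potassium channel, was at 2.02, 1.25, 1.55 and 1.13 against 0.09 to 0.39 and rose by 1.26 ± 0.18 (limma adjusted p = 0.167). Prelid2, of a family of mitochondrial lipid transfer proteins, was at 1.43, 1.23, 0.96 and 1.39 against 0.19 to 0.57 and rose by 0.86 ± 0.12 (limma adjusted p = 0.167). Caln1, a neuronal calcium sensor, was at 0.18 to 0.29 in the old libraries and at 0 in 4 of the 5 young ones. It was at 0.03 in the other (limma adjusted p = 0.216), and rests on few reads. With the Gm20594 covariate Hsd11b1, Kcnj15, Prelid2 and Caln1 were not called (limma adjusted p = 0.460, 0.370, 0.432 and 0.387). The next genes without overlap were not called: Tmem45b at 1.10 ± 0.20, Rbp7, a retinol-binding protein, at 0.56 ± 0.10 (both limma adjusted p = 0.277), Clec4n, a lectin of myeloid cells, at 0.61 ± 0.12 (0.298) and Impa2, an inositol monophosphatase, at 0.97 ± 0.19 (0.314).

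The thermogenic genes that define cold-exposed BAT did not pass the test with all 9 libraries, and some passed it when libraries were left out. Ucp1 was at 12.40, 12.41, 11.30 and 11.67 in old and at 12.17, 12.13, 12.35, 12.23 and 12.15 in young libraries. Old replicates 1 and 2 lay above all young libraries and old replicates 3 and 4 below, so that the difference of -0.26 ± 0.23 was an average of opposite departures (limma adjusted p = 0.9995). With only old replicates 3 and 4 Ucp1 was called lower, at -0.72 (limma adjusted p = 0.0557). Without old replicate 4 Ucp1 was at -0.17 and was not called (limma adjusted p = 0.774). With old replicate 3 alone the difference was -0.91, without a spread among old libraries to test it. Dio2 was at 8.49, 8.49, 7.75 and 6.85 in old and between 8.50 and 8.81 in young BAT. All old libraries were below all young ones, old replicates 1 and 2 by very little, and the difference of -0.69 ± 0.33 was not called (limma adjusted p = 0.9995). Dio2 was called lower with only old replicates 3 and 4, at -1.29 (limma adjusted p = 0.0685). It was also called lower with median centring, at -0.69 (0.130), and with quantile normalization, at -0.74 (0.116), but not without old replicate 4, at -0.34 (0.368). With old replicate 3 alone Dio2 was at -0.84. Ppargc1a differed by -0.21 ± 0.30, Cidea, a lipid droplet protein of brown fat, by 0.16 ± 0.17, the fate regulator Prdm16 by -0.20 ± 0.10 and the respiratory subunit Cox8b by -0.00 ± 0.14. Adrb3 was at 5.71, 4.78, 4.88 and 2.03 in old and between 4.02 and 4.59 in young libraries, with old replicates 1 to 3 above and replicate 4 below all of them (0.07 ± 0.67), and was called higher without old replicate 4, at 0.84 (limma adjusted p = 0.135). Of all 25 genes of brown adipocyte identity and thermogenesis, 10 had a higher and 15 a lower mean in old BAT, 0 passed the limma test and 0 were below 0.05 without adjustment. Without old replicate 4, 5 of them were called higher, beside 15.3% of all genes, and with only old replicates 3 and 4, 8 were called lower, beside 27.5% of all genes. Ucp2 differed by 0.26 and Ucp3 by -0.05.

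Fuel use was described by the same measures. The mitochondrial pyruvate carrier subunits Mpc1 and Mpc2 differed by -0.60 ± 0.39 and -0.11 ± 0.27. Mpc1 was at 4.96 and 4.40 in old replicates 1 and 2 and at 6.12 and 6.26 in old replicates 3 and 4, beside 5.84 to 6.39 in young libraries, and thus followed the Gm20594 level of the library. Cytochrome c (Cycs) had the same pattern, at 4.32 and 4.24 in old replicates 1 and 2, at 6.40 and 6.29 in old replicates 3 and 4, and at 6.29 to 6.68 in young BAT, as had the glycolytic enzyme Pgk1, at 4.15, 3.65, 5.22 and 5.64 against 5.48 to 5.96. Neither was called. The pyruvate dehydrogenase kinase Pdk4 differed by 0.23 ± 0.42, the glucose transporters Slc2a1 and Slc2a4 by -0.28 ± 0.16 and -0.04 ± 0.30, the carnitine transferase Cpt1b by -0.28 ± 0.30, fatty acid synthase Fasn by 0.28 ± 0.41 and leptin (Lep) by 0.03 ± 0.08. Some of these were called when libraries were left out or weighted. Fasn was called higher without old replicate 4, at 0.77 (limma adjusted p = 0.0540), and with library weights, at 0.54 (0.155). With only old replicates 3 and 4 Fasn was at -0.10 (0.934), and with old replicate 3 alone at 0.97. Pdk4 was called higher without old replicate 4, at 0.70 (limma adjusted p = 0.114), Mpc2 lower with only old replicates 3 and 4, at -0.53 (0.179), and Mpc1 lower with library weights, at -1.14 (0.0967). Of 23 genes of fatty acid and triglyceride synthesis, 18 had a higher mean in old BAT and 4 were higher at an unadjusted p under 0.05, none called, with a median of 0.28. Among them Acly, which makes cytosolic acetyl-CoA, was at 9.88, 8.32, 9.10 and 8.15 in old and between 6.80 and 8.35 in young libraries (1.36 ± 0.42, limma adjusted p = 0.60), and Thrsp, a regulator of lipogenesis, at 9.14, 8.33, 9.35 and 7.36 against 6.85 to 7.42 (1.35 ± 0.39, limma adjusted p = 0.55). Old replicate 4 lay within the young range in both, and old replicate 2 in Acly only. Of 17 genes of cholesterol synthesis, 14 had a higher mean, 3 were higher at an unadjusted p under 0.05 and the median was 0.20. Of 65 nuclear genes of the respiratory chain, 46 had a higher mean and the median was 0.09, with 1 higher and 3 lower at an unadjusted p under 0.05 and 0 called by limma. Of 27 genes of collagens and matrix, 20 had a lower mean and the median was -0.19. Of the 27, 2 lay below the young libraries without overlap, among them the collagen crosslinker Loxl2 (-0.44 ± 0.11, limma adjusted p = 0.43). Beside these lists, 7652 of all genes tested had a higher and 8482 a lower mean. At an unadjusted p under 0.05, 2.62% of all genes were higher and 2.64% lower, and 1.2% were lower without overlap. The medians of several lists changed sign with the libraries included. Without old replicate 4 and with only old replicates 3 and 4, in that order, the median was 0.59 and -0.11 for fatty acid and triglyceride synthesis, 0.12 and -0.14 for the respiratory chain, 0.11 and -0.59 for collagens and matrix and 0.21 and -0.012 for senescence and secreted inflammatory factors. It stayed above 0 in both settings for macrophage markers, at 0.52 and 0.047, and for MHC class II presentation, at 0.85 and 0.39. The same held for cholesterol synthesis, at 0.40 and 0.019, and for the lists of interferon response, MHC class I presentation and complement. It also held for T cell and NK cell, B cell and plasma cell, and red blood cell markers.

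**Figure D4:**
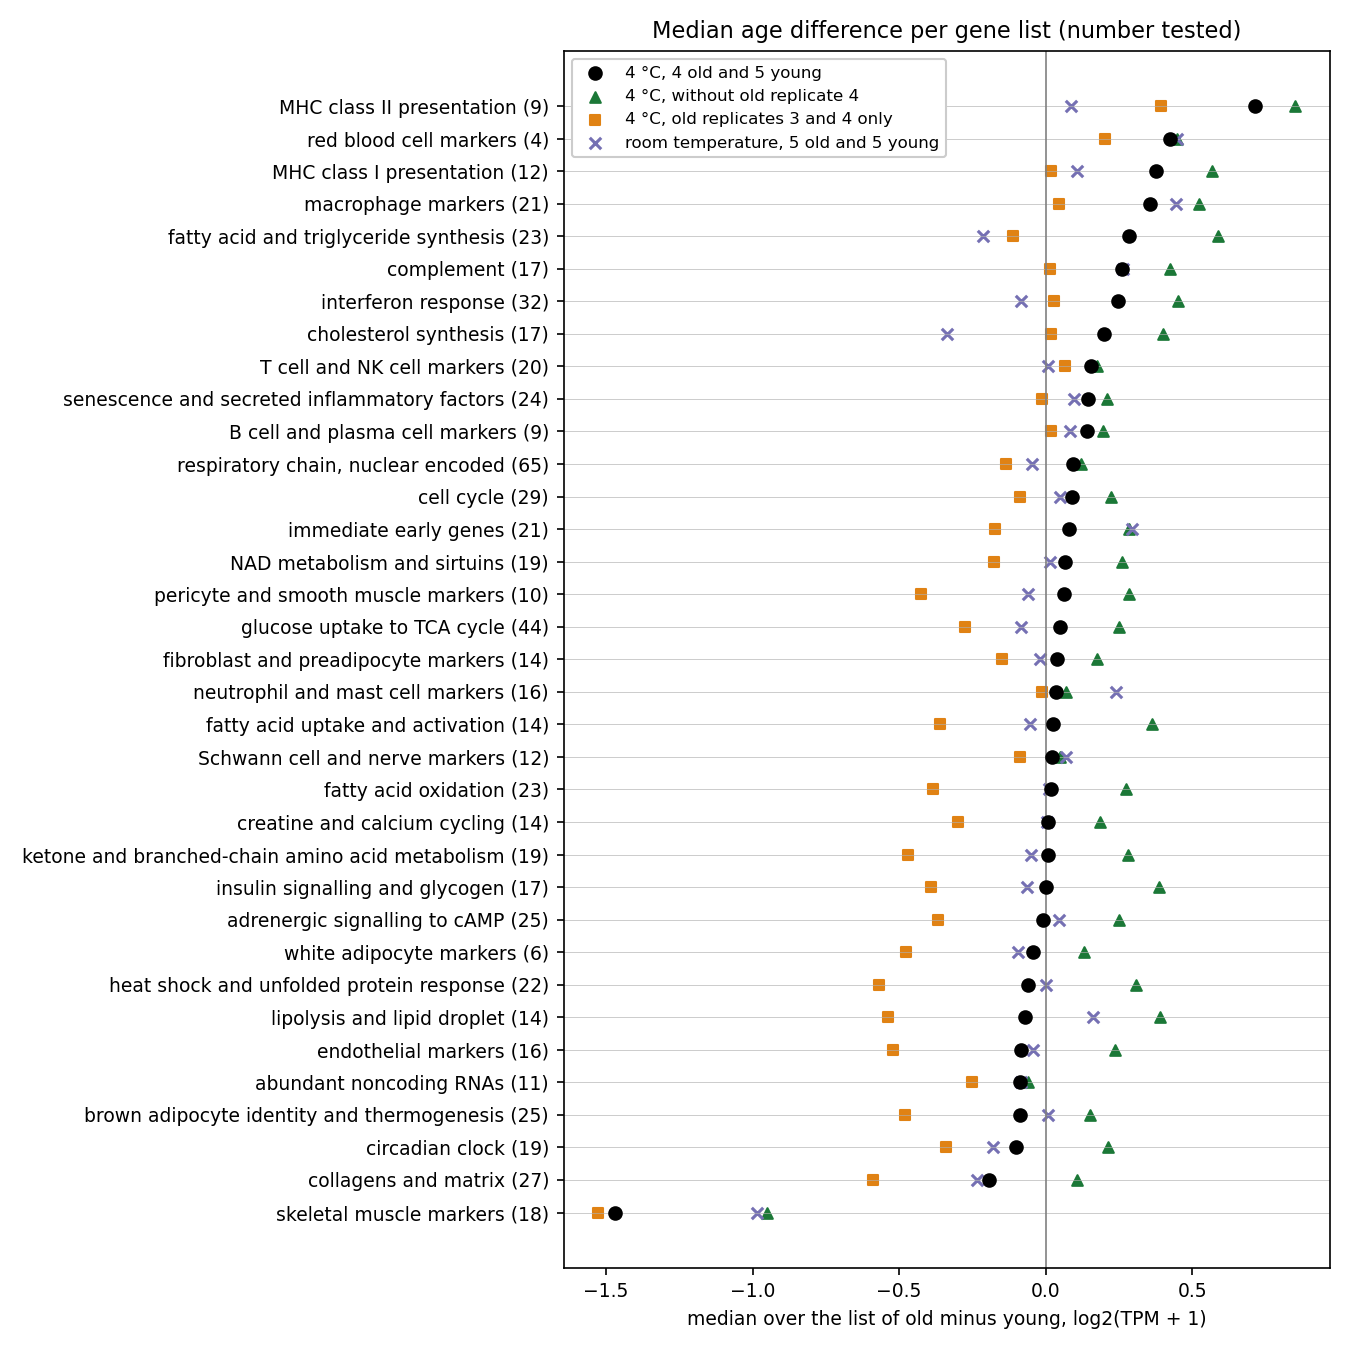
Median of the old minus young difference over each of the 35 gene lists with a tested gene, the number tested in brackets. Circles are all 9 cold libraries, triangles leave out old replicate 4, squares use only old replicates 3 and 4 of the old, and crosses are the 10 room temperature libraries. In most lists the triangle lies to the right and the square to the left of the circle. MHC class II presentation has the highest median in the cold (0.715) and skeletal muscle markers the lowest (-1.47).

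The age difference at room temperature was taken from 10 libraries that the cold comparison does not use. There 116 genes were called of 16233 (0.715%), 87 higher and 29 lower, with 0 at an adjusted p under 0.05 by limma. Of the 26 genes called in the cold, 15 had the same sign at room temperature, and 3 (Ccl8, Kcnj15 and Caln1) lay without overlap in the same direction. Over all 15410 genes tested at both temperatures, 51.8% had the same sign. Ccl8 was the only gene called in both, 1 of the 26 and 0.862% of the 116. At room temperature it ran from 2.12 to 5.17 in old and from 0 to 1.04 in young libraries, a difference of 2.50 ± 0.54 (limma adjusted p = 0.223), and the difference between the temperatures was 0.12 (limma adjusted p = 0.998). Kcnj15 ran from 1.28 to 3.38 in old and from 0.15 to 0.51 in young libraries at room temperature (1.41 ± 0.38, limma adjusted p = 0.311). Hsd11b1 differed by 0.997 ± 0.37 there with overlap (limma adjusted p = 0.522).

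A test of the difference itself, the interaction of age and temperature over all 19 libraries, called 18 of 16957 genes (0.106%), 10 higher and 8 lower, and 4 of them were among the 26 called in the cold. Socs2 was at 0.47 to 1.48 in old and 0.26 to 0.61 in young libraries at room temperature, overlapping, with a difference of 0.43 ± 0.21, against -1.47 in the cold, and the interaction was -1.90 (limma adjusted p = 0.00998). Gfra1 was low at both ages at room temperature, 0.12 to 0.52 in old and 0.13 to 0.34 in young, and the interaction was -0.89 (limma adjusted p = 0.00998). Hilpda differed by -0.25 ± 0.16 at room temperature and the interaction was 1.80 (limma adjusted p = 0.0608). Ankrd33b differed by 0.01 ± 0.08 at room temperature and the interaction was -0.71 (limma adjusted p = 0.243). Of the 3 named genes with a called interaction that were not called in the cold, the acyl-CoA thioesterase Acot5 differed by -0.88 ± 0.20 in the cold and 0.22 ± 0.07 at room temperature, Ccdc138 by -0.50 ± 0.12 and 0.27 ± 0.09, and the phosphatase Dusp14 by 0.21 ± 0.11 and -0.72 ± 0.13.

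For the chaperones the interaction did not pass the test. Hspa8 ran from 3.81 to 5.56 in old and from 4.53 to 5.76 in young libraries at room temperature, a difference of -0.27 ± 0.34 beside -1.09 in the cold (interaction -0.81, limma adjusted p = 0.998). Hsp90aa1 ran from 2.68 to 4.26 and from 2.65 to 3.89 (0.30 ± 0.35 beside -1.44, interaction -1.74, limma adjusted p = 0.470), and Hspe1 from 4.12 to 4.90 and from 4.36 to 4.96 (-0.12 ± 0.16 beside -0.73, interaction -0.61, limma adjusted p = 0.718). All 3 were lower at room temperature than in the cold at both ages, with no overlap between the room temperature and the cold libraries of an age.

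**Figure D5:**
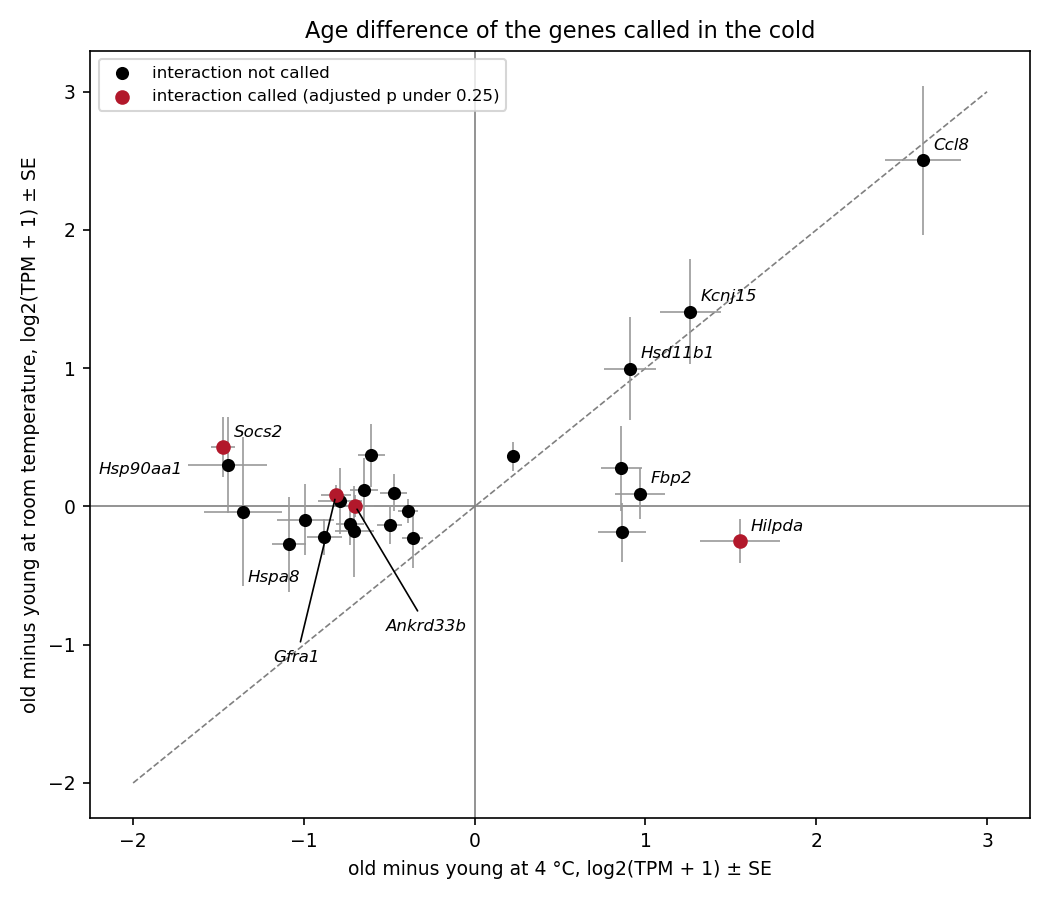
Old minus young difference of 25 of the 26 called genes in the cold (horizontal) and at room temperature (vertical), both on the log2(TPM + 1) scale ± standard error, with a dashed line where both are equal. Ccl8, Kcnj15 and Hsd11b1 lie near the dashed line. Socs2, Gfra1, Hilpda and Ankrd33b, marked as called for the interaction, lie away from it, with room temperature differences of 0.43, 0.08, -0.25 and 0.01.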

How the data were processed

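RNA from BAT was sequenced as 19 libraries, for which the paper names an mRNA library kit together with removal of rRNA. Per the labels the authors used limma 3.20.9, edgeR and R 3.2.2. The deposited table holds log2(TPM + 1) values of 20554 genes, a column per library, which the authors aligned with Rsubread; the methods name a human genome while the gene identifiers are of mouse, so which build was used remains unclear. Counts were not used here. Depth was taken relative to the deepest library from what a single read was worth, since 99.8% of 16532 ratios of low values were whole within 0.02, and the difference in depth was tested by an exact permutation test.

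Groups came from the labels. The log2 values were fitted with limma 3.58.1 in R 4.3.3, with two-sided moderated tests and Benjamini-Hochberg adjustment over all genes tested, leaving out genes at 0 in every library fitted. The threshold for a call was an adjusted p of 0.25. A difference is on the log2(TPM + 1) scale and understates the change of low genes. The procedure was tested on simulated data with independent noise for each gene and no shift of whole libraries. How such shifts act on the calls was therefore not tested by it.

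The groups, the 36 gene lists and the rule for named genes were chosen with earlier results of these data known. The rule took up to 12 called genes without overlap in each direction (filled up by the smallest unadjusted p), up to 4 called members a list, 18 fixed genes of BAT and the 6 smallest adjusted p of the interaction, and the other called genes are named too, except 1 that is counted but whose values are not given. Positions of genes were read from GENCODE M21 (GRCm38). Figures used Python 3.11.15 and matplotlib 3.10.9.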

Additional observations from a re-analysis of the deposited data

Results flagged for a closer look

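In groups of this size a library is picked out as standing apart, by its gap to the nearest other library relative to the range of the group, in about 1 of 20 groups by chance. Among the named genes this held for old replicate 4, low in Pdk4 (8.25, the nearest old library at 10.00) and in Cpt1b (2.33, nearest 3.71), and for old replicate 3, high in Socs2 (1.85, nearest 1.58). It held for young replicate 1, low in Slc2a1 (1.496, nearest 1.95) and in Pdcd10 (3.19, nearest 3.39) and high in Dio2 (8.81, nearest 8.55), and for young replicate 3 in Caln1 (0.032, all others at 0).

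By the limma interaction over 19 libraries, the age difference in the cold was called as different from that at room temperature for 7 named genes. The rule for named genes took all but Ankrd33b by their small adjusted p of the interaction. Finding calls among these genes thus followed from how they were chosen. Fewer genes were called in many fits with a library left out. Without young replicate 2 in the cold, 1 gene was called higher and 2 lower. The difference of differences was 1.80 for Hilpda and 0.93 for Dusp14, and -1.90 for Socs2, -1.10 for Acot5, -0.89 for Gfra1, -0.77 for Ccdc138 and -0.71 for Ankrd33b. The adjusted p was 0.00998 for Socs2 and Gfra1, 0.0608 for Hilpda and 0.243 for the other 4.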

How the results depend on the processing

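Limits. The 4 old libraries were mostly shallow and lay farther apart from each other than the young ones; the part of depth and spread in the number of calls was not tested. Within the cold libraries the Gm20594 level and old age cannot be told apart in old replicates 1 and 2, since no young cold library was below 13. At room temperature 1 old library (11.26) and 1 young library (11.29) were below 13, so the low level was not confined to old mice or to the cold. All 26 called genes kept their direction under every alternative in which they were tested, and the list medians described above kept their sign under median centring and quantile normalization.

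Genes called in the cold (8 higher and 18 lower) came to 1 and 2 at an adjusted p under 0.05, 51 and 72 with a mean of at least 1 TPM, 4 and 13 without a filter, 281 and 191 with median centring, 704 and 492 with quantile normalization, 3379 and 404 with library weights, 15 and 21 when the 19 libraries were fitted together, 247 and 4398 with Gm20594 at 13 or more, 12 and 65 with Gm20594 at 13 or more against less as a covariate, and 613 and 840 with Gm20594 at 13 or more and no old replicate 4, an alternative chosen after seeing the data. With a library left out the counts ran from 1 to 2461 higher and from 2 to 320 lower. They were 2461 and 320 without old replicate 4, 54 and 115 without old replicate 3, 3 and 13 without old replicate 1, and 2 and 8, 2 and 7, 1 and 5, 1 and 2, and 1 and 6 without young replicates 1 to 5. Whether the numbers of the replicates pair the libraries was not settled. Replicate 5 was the deepest library of the young in the cold (100%). It was also the deepest at room temperature in the old (62.7%) and the young (63.9%), while the old in the cold have no replicate 5. Deviations of libraries with the same number correlated at 0.213, 0.200, 0.167 and 0.0829, and old replicates 2 and 3 but not 1 and 4 correlated best with their own number. With the replicate block 0 and 0 genes were called by limma in the cold, with 388 and 369 at an unadjusted p under 0.05. The cause of these changes was not tested.

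At room temperature (87 higher and 29 lower) the counts were 0 and 0 at an adjusted p under 0.05 and 134 and 78 with at least 1 TPM. They were 263 and 266 with median centring and 391 and 390 with quantile normalization. They were 46 and 28 with Gm20594 at 13 or more and 14 and 9 with the replicate block. With a library left out they ran from 4 to 188 and from 1 to 107. For the interaction (10 higher and 8 lower) the counts were 0 and 2 at 0.05 and 19 and 19 with at least 1 TPM. They were 168 and 122 with median centring, 370 and 287 with quantile normalization and 4 and 2 with a pseudocount of 0.1. They were 212 and 3451 with Gm20594 at 13 or more, 2 and 7 with the Gm20594 covariate and 16 and 10 with the replicate block. With a library left out they ran from 1 to 488 and from 2 to 58. The depth difference ran from -31.7 to -12.6 percentage points with a library left out, with an exact permutation p of 0.0357 without old replicate 3.

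Genes that were not called changed sign in some settings. With Gm20594 at 13 or more, Fasn was at -0.10, Pdk4 at -0.30, Cidea at -0.12, Adrb3 at -0.83, Lep at -0.027, Pnpla2 at -0.11 and Mpc1 at 0.16, and with the Gm20594 covariate these were at -0.062, -0.024, -0.11, -0.59, -0.23, -0.11 and 0.12. Library weights gave Slc2a4 0.20, Mpc2 0.062, Ppargc1a 0.13, Ucp1 0.011 and Cpt1b 0.060, and the replicate block gave Cox8b 0.046. Old replicate 3 alone gave Slc2a4 0.13, Cpt1b 0.060, Slc2a1 0.016 and Mpc1 0.087. With a library left out, Adrb3 ran from -0.38 to 0.84, Lep from -0.020 to 0.084, Pnpla2 from -0.24 to 0.38, Cox8b from -0.084 to 0.13, Slc2a4 from -0.26 to 0.29, Mpc2 from -0.36 to 0.033, Ppargc1a from -0.43 to 0.069 and Cpt1b from -0.40 to 0.062.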

Other observations

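Several lists without a call held genes whose libraries did not overlap between the ages. Over all genes, 0.967% were higher and 1.2% lower without overlap. Nnmt, which methylates nicotinamide, was at 5.41, 5.30, 4.35 and 5.38 in old and between 5.77 and 6.49 in young BAT in the cold (-0.97 ± 0.25, limma adjusted p = 0.46). Mfsd2a, a lipid transporter of the plasma membrane chosen after its values were seen, was at 5.24, 5.32, 5.24 and 4.88 against 5.58 to 6.35 (-0.82 ± 0.17, limma adjusted p = 0.34). Bdh1, a ketone body dehydrogenase, was at 0.40, 0.60, 0.04 and 0.32 against 0.63 to 1.38 (-0.66 ± 0.17, limma adjusted p = 0.45), and Hadhb, of fatty acid oxidation, at 6.37, 6.20, 7.21 and 6.79 against 7.24 to 7.42 (-0.70 ± 0.19, limma adjusted p = 0.51). In each of these all old libraries were below all young ones. In the other direction B2m, the light chain of MHC class I, was at 8.39, 9.05, 7.74 and 7.73 against 7.00 to 7.65 (0.91 ± 0.28, limma adjusted p = 0.61), S100a8, a protein of neutrophils, at 1.17, 1.81, 1.90 and 0.68 against 0 to 0.59 (1.01 ± 0.26, limma adjusted p = 0.46), and Usp18, an interferon-induced protease, at 1.75, 1.74, 1.41 and 1.04 against 0.61 to 1.02 (0.62 ± 0.16, limma adjusted p = 0.46).

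Of 12 genes of MHC class I presentation 10 had a higher mean in old BAT (median 0.38), and of 17 complement genes 15 (0.26). Of 32 interferon response genes 28 had a higher mean (0.25), and of 9 B cell and plasma cell markers 9 (0.14). In each list 0 were called by limma. At an unadjusted p under 0.05, 2, 5, 4 and 2 were higher, in that order, beside 2.62% of all genes. At room temperature the medians of these lists were 0.11, 0.26, -0.08 and 0.08. Red blood cell markers summed to 53.4 to 73.1 TPM in old and 30.2 to 52.7 TPM in young cold libraries, without overlap.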
